A study of Mus musculus with 16 samples.

Results

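The bone morphogenetic protein (BMP) pathway and its Id targets were followed through 10 genes in the dentate gyrus, the part of the hippocampus that produces new neurons in the adult. They were the ligands Bmp4 and Bmp6, the receptors Bmpr1a, Bmpr1b and Bmpr2, the secreted inhibitor Nog (noggin) and the target genes Id1, Id2, Id3 and Id4. The genes were chosen by name, and 10 of 10 were found among the 24421 gene names of the tables, each with a value in all 16 libraries. All 10 passed the filter on low values and were tested.

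Each library was made with an mRNA-Seq kit from total RNA of the dentate gyri of 2 pooled male C57BL/6 mice aged 1 year, and each of the 4 groups held 4 libraries. p16 WT CTL were sedentary wild-type mice (replicates 1 to 4), p16 KO CTL sedentary p16Ink4a-/- mice (replicates 5 to 8), p16 WT RUN wild-type mice after 12 days with a running wheel (replicates 9 to 12) and p16 KO RUN p16Ink4a-/- mice after the same running (replicates 13 to 16). The null allele is constitutive, so that every cell of the knockout lacks p16, an inhibitor of the kinases Cdk4 and Cdk6, while the p19Arf product of the same locus is kept. It was made in the FVB strain and backcrossed to C57BL/6, and the wild-type groups were on the C57BL/6 background. Because 2 animals were pooled in each library, p-values measure the spread between pools and not between single mice.

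BMP ligands bind type I receptors (Bmpr1a, Bmpr1b) and the type II receptor Bmpr2. The type II receptor phosphorylates the type I receptor, which in turn phosphorylates Smad1, Smad5 and Smad9. These enter the nucleus with Smad4 and switch on genes of which the Id family is the best known. Id proteins are helix-loop-helix factors without a DNA-binding domain that capture E proteins and thereby hold back differentiation. In the adult hippocampus BMP signalling is known to keep neural stem cells quiescent, and noggin, which binds the ligands outside the cell, opposes it.

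The tables give abundance in TPM, a share of all transcripts that corrects for gene length, and hold no read counts. Relative coverage ran from 0.621 to 0.877 in the p16 WT RUN libraries, from 0.796 to 0.893 in p16 KO RUN, from 0.90 to 1.95 in p16 WT CTL and from 0.915 to 1.68 in p16 KO CTL. Every running library thus lay below every sedentary one in depth. The part of this difference in the running comparisons was not tested. Cdkn2a, the gene of p16 and p19Arf, was near the limit of detection, with a highest value of 0.586 TPM in p16 WT CTL and 0.344 TPM in p16 KO CTL, and did not tell the genotypes apart. Markers of dentate granule neurons summed to 495 to 1353 TPM over all libraries, and none of the marker genes examined was at 0 throughout a group. The lowest sum was that of replicate 8 of p16 KO CTL. This library also had the highest sums of CA pyramidal neuron markers (880 TPM) and of oligodendrocyte markers (2426 TPM). The part of such differences between dissections was not tested. In 3 sedentary libraries, replicate 2 of p16 WT CTL and replicates 6 and 7 of p16 KO CTL, the summed level of 8 transcripts that stay in the nucleus (such as Malat1 and Meg3) was 479 to 977 TPM, against 1828 to 2533 TPM in the other 13. Every comparison that holds these libraries was also fitted without them. Replicate 7 also had a choroid plexus marker sum of 213 TPM, against at most 62.2 TPM in any other library. The part of choroid plexus tissue in the results was not tested. In bulk RNA, fewer cells of a type and less RNA per cell cannot be told apart.

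The promoters of Id2, Id3 and Id4 are shown because Id3 and Id4 gave the differences described below in opposite directions, whereas no difference was detected for Id2. Each window runs from 250 bases before to 50 after the RefSeq start (GRCm38.p6, the mm10 build), 5′ to 3′ on the strand of the gene. Capitals mark 2 motifs bound by Smads. GGCGCC is rich in G and C and reads the same on both strands. CAGAC is the Smad box, which on the other strand reads GTCTG. The motifs do not overlap.
Id2 (chr12:25096043-25096342, minus strand): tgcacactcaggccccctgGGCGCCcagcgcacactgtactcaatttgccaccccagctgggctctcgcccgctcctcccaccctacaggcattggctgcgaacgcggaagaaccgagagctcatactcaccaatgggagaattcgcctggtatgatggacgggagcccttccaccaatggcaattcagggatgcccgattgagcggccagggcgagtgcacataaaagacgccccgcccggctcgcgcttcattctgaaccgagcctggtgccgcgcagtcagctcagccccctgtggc
Id3 (chr4:136143572-136143871, plus strand): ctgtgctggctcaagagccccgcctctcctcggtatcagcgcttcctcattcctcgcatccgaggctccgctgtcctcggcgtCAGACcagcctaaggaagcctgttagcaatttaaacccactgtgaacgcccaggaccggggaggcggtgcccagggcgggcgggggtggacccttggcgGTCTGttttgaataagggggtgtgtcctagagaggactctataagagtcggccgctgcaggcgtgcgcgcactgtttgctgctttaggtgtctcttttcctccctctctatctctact
Id4 (chr13:48260866-48261165, plus strand): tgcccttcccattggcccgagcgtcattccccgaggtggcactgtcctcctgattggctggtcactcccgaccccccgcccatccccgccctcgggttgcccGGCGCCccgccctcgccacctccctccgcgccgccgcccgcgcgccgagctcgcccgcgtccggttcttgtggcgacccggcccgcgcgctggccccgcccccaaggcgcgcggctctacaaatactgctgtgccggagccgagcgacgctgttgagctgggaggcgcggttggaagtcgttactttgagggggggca

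The Id2 and Id4 windows hold GGCGCC and the Id3 window does not, while the Id3 window alone of the 3 holds CAGAC or GTCTG. RefSeq windows were matched for 8 of the 10 genes, and no window was found for Id1 and Nog. Id1, which also gave a difference described below, could therefore not be shown. GGCGCC was found in 4 of these 8 genes (Bmpr1a, Bmpr2, Id2 and Id4) and in 11.9% of 32851 mouse promoters of the same length. CAGAC was found in 3 of them (Bmp6, Bmpr1b and Id3) and in 49.6% of promoters. A match of letters is a description of the window and not a site of binding.

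The 10 genes spanned a broad range of levels. By the median TPM over the 16 libraries, the order was Id2 (156 TPM), Id4 (76.8), Bmpr2 (64.2), Id3 (54.9), Bmpr1a (34.9), Id1 (20.5), Nog (10.8), Bmpr1b (10.4), Bmp6 (7.96) and Bmp4 (1.18). Id2 lay above Id4, Id3 above Bmpr1a, Bmpr1a above Id1 and Bmp6 above Bmp4 in 16 of 16 libraries. Neighbours that changed places were Nog and Bmpr1b (Nog above in 10 of 16 libraries), Bmpr2 and Id3 (11), Bmpr1b and Bmp6 (11), Id4 and Bmpr2 (13) and Id1 and Nog (14), and these pairs are not ordered beyond the spread between libraries.

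**Figure D1:**
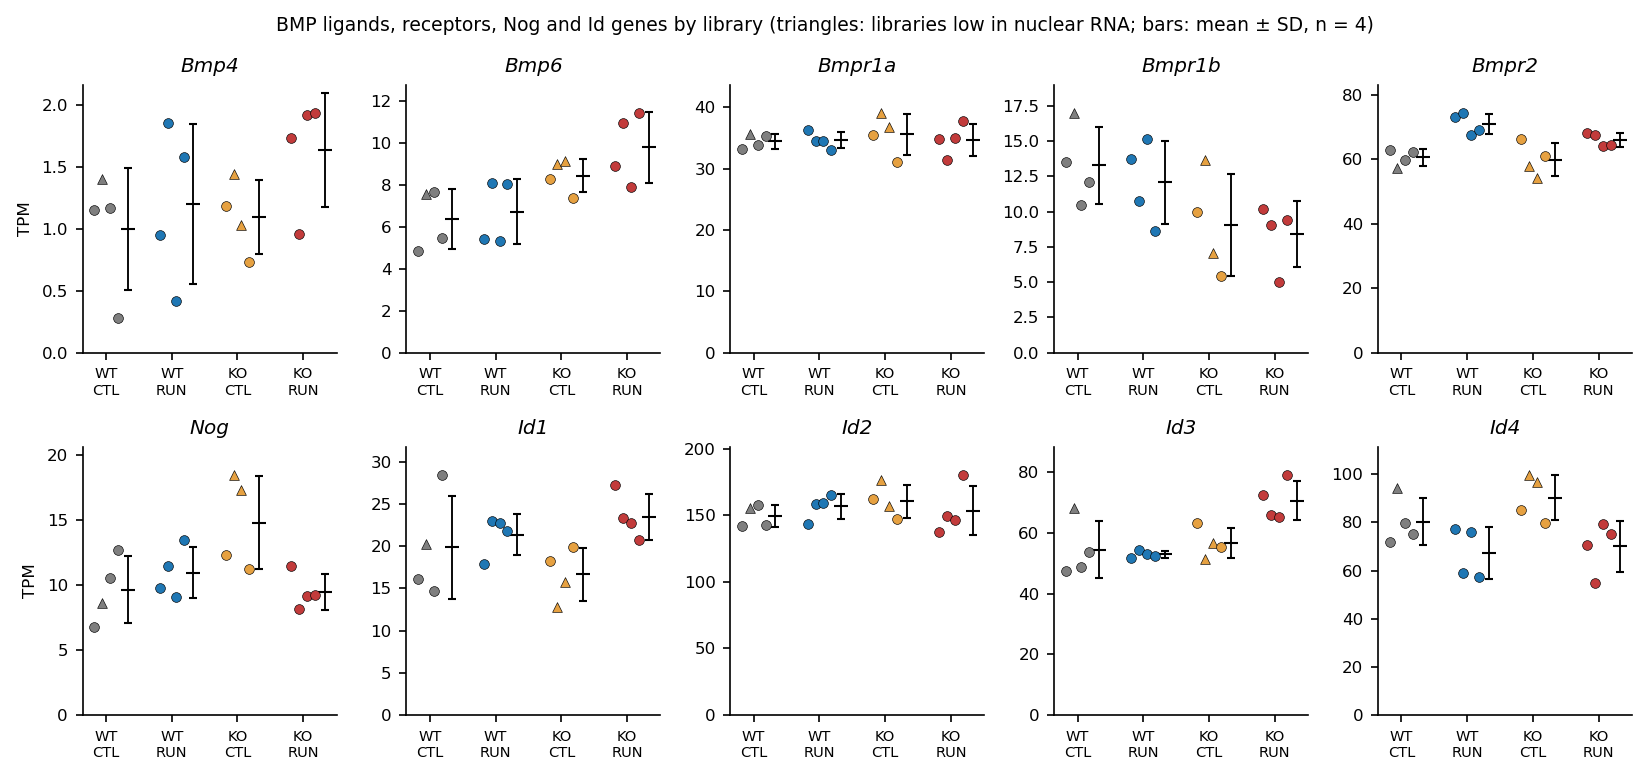
TPM of the 10 genes in each library, by group, with the mean ± SD of 4 libraries beside the points and with triangles for the 3 libraries low in nuclear RNA. Id3 sits at 65.3 to 78.9 TPM in p16 KO RUN, above the 51.9 to 54.5 TPM of p16 WT RUN, and Bmpr2 sits at 67.6 to 74.3 TPM in p16 WT RUN, above the 57.4 to 62.8 TPM of p16 WT CTL.

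Differences between groups were tested with limma on log2 values over 17317 genes, and a gene was called at an unadjusted p under 0.05, the threshold of the study. Running was compared with sedentary life in p16 WT (Set C) and in p16 KO (Set A), and p16 KO with p16 WT in sedentary mice (Set B) and in runners (Set E). Set C called 1 of the 10 genes (Bmpr2, higher), where 4.81% of all tested genes were called and 2.69% of all tested genes as higher. Set A called 4 of 10, where 18.5% of all genes were called. Of these, Id1 and Id3 were higher, as were 10.7% of all genes, and Id4 and Nog were lower, as were 7.74%. Set B called 2 of 10 (Bmp6 and Nog, higher), where 6.69% of all genes were called and 3.15% as higher. Set E called 2 of 10 (Bmp6 and Id3, higher), where 3.87% were called and 2.11% as higher. The groups did not overlap in TPM for 3 of the 10 genes in Set A (Id1, Id3 and Id4), 1 in Set C (Bmpr2), 1 in Set E (Id3) and 0 in Set B, against 10.0%, 3.34%, 2.49% and 2.81% of all genes. Counts over 10 genes are small, and no share was tested.

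None of these calls passed Benjamini-Hochberg adjustment over the 17317 genes in limma, a level that 3 genes reached in Set A, 1 in Set E and 0 in Sets B and C, where 1158 and 833 genes had an unadjusted p under 0.05. For running, the median log2 fold change of the 10 genes was 0.06 (Set C) and -0.01 (Set A), beside 0.0039 and 0.02 for all tested genes. For genotype, it was 0.15 (Set B) and 0.04 (Set E), beside -0.01 and 0.0032. The smallest p of the exact permutation test with 4 libraries against 4 is 0.0286.

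**Figure D2:**
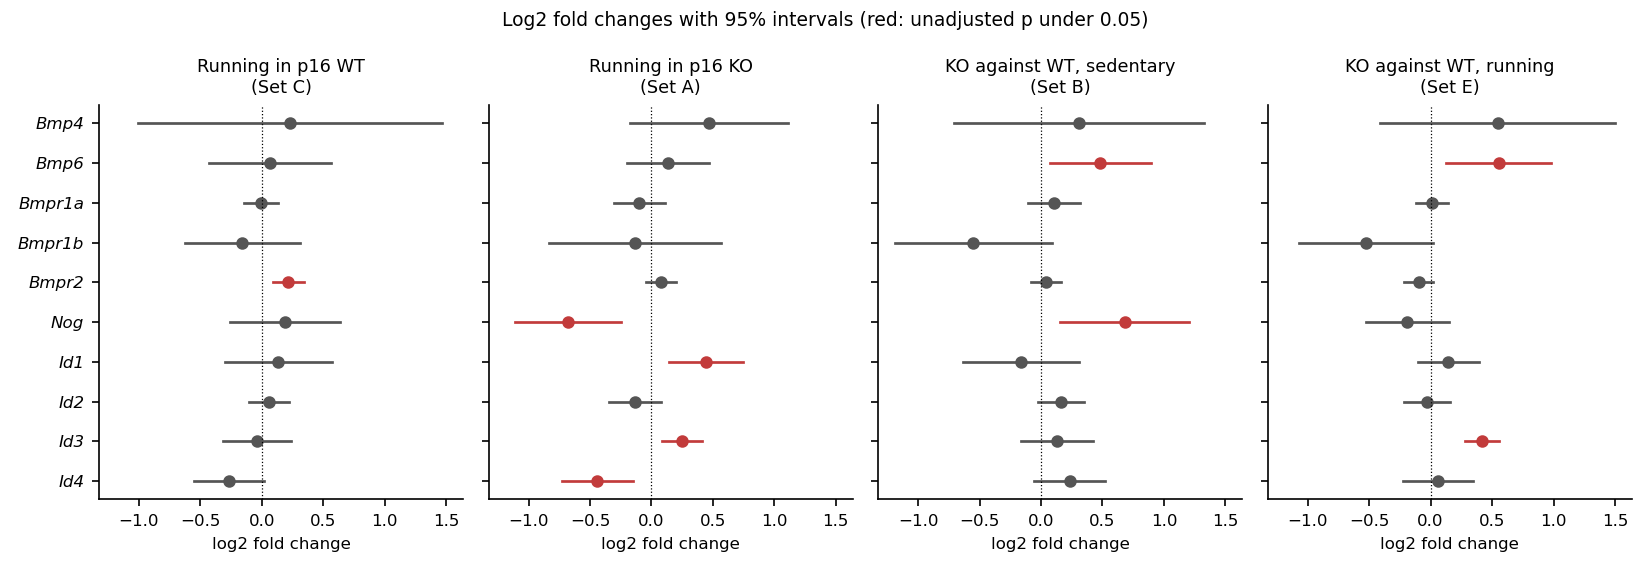
Log2 fold change of each gene with its 95% interval from limma, in 1 panel for each comparison, with red for an unadjusted p under 0.05. In Set A the intervals of Nog and Id4 lie below 0 and those of Id1 and Id3 above it, and in Set E the interval of Id3 runs from 0.28 to 0.56.

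Among the ligands, Bmp6, whose gene spans chr13:38345716-38499728, was higher in p16 KO than in p16 WT in both pairs of groups. The p16 WT CTL libraries had 4.83, 7.56, 7.63 and 5.45 TPM and the p16 KO CTL libraries 8.29, 8.97, 9.12 and 7.36 TPM. Only replicate 8 of p16 KO CTL fell within the range of p16 WT CTL. In Set B Bmp6 was 1.40-fold higher, at a log2 fold change of 0.48 ± 0.18 (SE), with a limma p of 0.0269, an adjusted p of 0.625 and an exact permutation p of 0.0571. In the runners, p16 WT RUN had 5.44, 8.07, 5.34 and 8.04 TPM and p16 KO RUN 8.87, 10.95, 7.88 and 11.41 TPM, so that replicate 15 overlapped the wild type. In Set E it was 1.47-fold higher, at 0.55 ± 0.19 (limma p = 0.0171, adjusted p = 1.00, exact permutation p = 0.0857).

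Sets B and E share no library, and Bmp6 was the 1 gene of the 10 called in both in the same direction, as were 0.254% of all tested genes. The call in Set E was kept without any 1 of its 8 libraries. That in Set B was lost without replicate 1, 4, 6 or 7, with log2 fold changes of 0.36 to 0.60 over the 8 fits, and without the 3 libraries low in nuclear RNA (0.45, not called). Replicate 7 had the highest Bmp6 of p16 KO CTL and the highest choroid plexus sum of all libraries, and the part of that tissue was not tested. Running did not pass the test for Bmp6 in either genotype, with log2 fold changes of 0.06 (95% interval -0.43 to 0.56) in Set C and 0.13 (-0.20 to 0.47) in Set A.

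Bmp4, the other ligand, was the lowest of the 10 genes. It had 0.28 to 1.40 TPM in p16 WT CTL, 0.42 to 1.85 in p16 WT RUN, 0.73 to 1.44 in p16 KO CTL and 0.96 to 1.93 in p16 KO RUN. All groups overlapped and no comparison passed the test. The 95% intervals were wide, from -0.41 to 1.5 around a log2 fold change of 0.55 in Set E and from -0.18 to 1.1 around 0.47 in Set A. Bmp4 at chr14:46383520-46390599 overlaps Gm15217 and the antisense gene Gm15222. Likewise Bmp6 overlaps the antisense gene 4930579J19Rik, Bmpr1a the antisense gene Gm17110 and Bmpr2 Gm38125 on its own strand. The sources used here do not say whether reads were assigned by strand, so reads of such pairs may not be told apart.

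Among the receptors, Bmpr2, the type II receptor at chr1:59764279-59878081, was higher after running in p16 WT. It had 62.78, 57.37, 59.72 and 62.43 TPM in p16 WT CTL and 73.09, 74.30, 67.58 and 68.96 TPM in p16 WT RUN. Every running library lay above every sedentary one. This was a 1.16-fold difference, at a log2 fold change of 0.22 ± 0.06 (SE; limma p = 0.00393, adjusted p = 0.937, exact permutation p = 0.0286), and rank 66 by p among 17317 genes. It was 0.18 to 0.25 and was called in each of the 8 fits without 1 library, replicate 2 included (0.21). Set C called higher 1 of 7 dentate granule neuron markers, 1 of 8 of CA pyramidal neurons and 1 of 8 of GABAergic interneurons. In these lists 0 markers were called lower. Their part in this and the other results of Set C was not tested.

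In p16 KO the same receptor had 66.24, 57.87, 54.15 and 61.17 TPM in the sedentary libraries and 68.06, 67.51, 64.16 and 64.32 TPM in the runners. The lowest sedentary values were those of replicates 6 and 7, which are low in nuclear RNA, and replicate 5 lay within the range of the runners. In Set A the log2 fold change was 0.08 (95% interval -0.04 to 0.20) and was not called. The difference between the running effects of the genotypes was -0.14 (-0.29 to 0.02) and was not called, whereas it was -0.18 and called without the 3 libraries low in nuclear RNA.

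Bmpr1a, the type I receptor at chr14:34411068-34502546, varied little, with 31.0 to 39.0 TPM over the 16 libraries. Its log2 fold changes with running were -0.01 (95% interval -0.15 to 0.13) in p16 WT and -0.10 (-0.31 to 0.11) in p16 KO, and those with genotype were 0.10 (-0.11 to 0.31) in sedentary mice and 0.01 (-0.12 to 0.14) in runners. None passed the test. The other type I receptor, Bmpr1b at chr3:141837136-142169228, was more variable. It had 13.52, 16.98, 10.49 and 12.11 TPM in p16 WT CTL, 13.74, 10.75, 15.18 and 8.64 TPM in p16 WT RUN, 10.00, 13.69, 7.06 and 5.43 TPM in p16 KO CTL and 10.21, 9.04, 5.01 and 9.39 in p16 KO RUN. The lower means were those of the knockout, yet the genotypes overlapped and neither comparison passed the test, with log2 fold changes of -0.55 (95% interval -1.19 to 0.09) in Set B and -0.53 (-1.07 to 0.02) in Set E. With the mean log2 level of the nuclear transcripts as a covariate these were -0.79 and -0.51 and both were called.

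Nog, the gene of the inhibitor noggin at chr11:89300638-89302559, was highest in sedentary knockout mice. p16 WT CTL had 6.73, 8.59, 10.50 and 12.71 TPM, p16 KO CTL 12.29, 18.39, 17.25 and 11.19 TPM, p16 WT RUN 9.75, 11.44, 9.05 and 13.44 TPM and p16 KO RUN 11.43, 8.17, 9.12 and 9.19 TPM. The highest 2 of the 16 values, 17.25 and 18.39, were those of replicates 7 and 6, both low in nuclear RNA, and the third library of that kind, replicate 2 of p16 WT CTL, had 8.59. Replicate 7 also had the highest choroid plexus sum (213 TPM), and the part of that tissue was not tested. Replicate 8 of p16 KO CTL lay below replicate 13 of p16 KO RUN.

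In Set B the log2 fold change of Nog was 0.68 ± 0.23 (SE; limma p = 0.0168, adjusted p = 0.625, exact permutation p = 0.0857). Its call was lost without replicate 6 and without replicate 7, with values of 0.52 to 0.81 over the 8 fits, and it was 0.32 and not called without the 3 libraries low in nuclear RNA. In Set A Nog was lower after running, at a log2 fold change of -0.68 ± 0.19 (limma p = 0.00618, adjusted p = 0.174, exact permutation p = 0.0286), which was called in 8 of 8 fits without 1 library (-0.81 to -0.56). Without replicates 6 and 7 together the value was -0.33, still called.

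Running in p16 WT did not pass the test for Nog, with a log2 fold change of 0.19 (95% interval -0.26 to 0.64). The difference between the running effects of the genotypes was itself called, at -0.87 ± 0.29 (SE; 95% interval -1.49 to -0.25, limma adjusted p = 0.797). Nog was the 1 gene of the 10 called in this interaction, where 5.48% of all genes were called and 2.54% with a lower effect in p16 KO. It was called in all 16 fits without 1 library (-1.0 to -0.71), and with the nuclear RNA covariate (-0.73), but not without the 3 libraries low in nuclear RNA (-0.51). The 8 nuclear transcripts had a median log2 difference of 0.87 in the same interaction, with 0 of 8 called. Among the cell type lists, 3 of 8 markers of CA pyramidal neurons, 2 of 10 of astrocytes, 1 of 6 of oligodendrocytes and 1 of 8 of GABAergic interneurons were called lower, in the direction of Nog, and 1 of 6 of newborn neurons was called higher. Their part in the result was not tested.

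**Figure D3:**
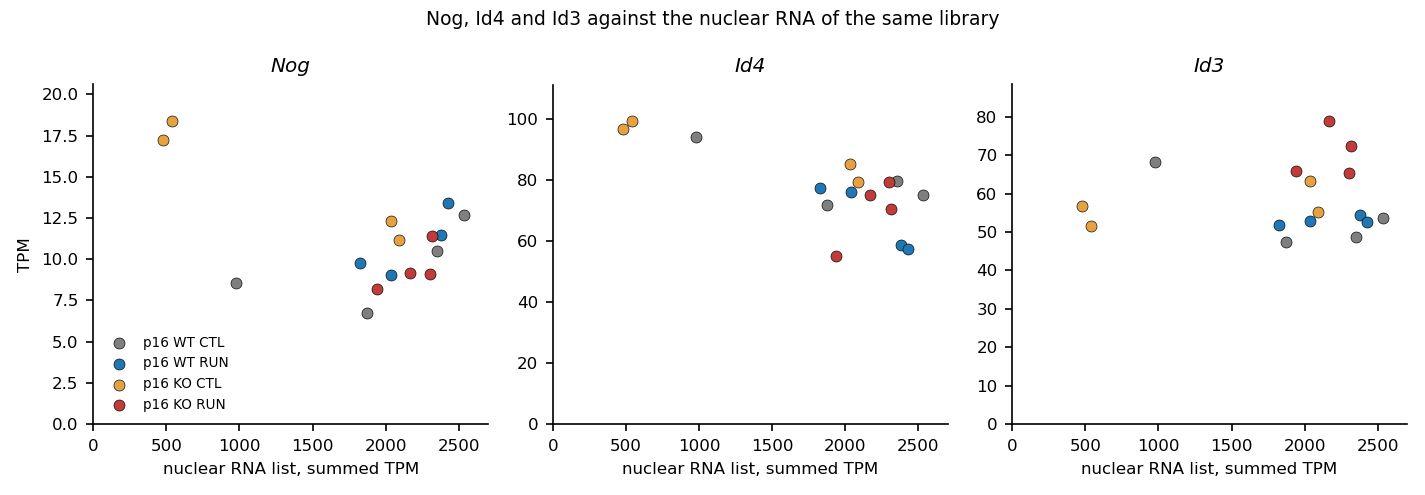
TPM of Nog, Id4 and Id3 in each library against the summed TPM of the 8 nuclear transcripts of the same library, coloured by group. The 3 libraries at 479 to 977 TPM of nuclear RNA hold the highest 3 values of Id4 (94.1 to 99.5 TPM) and the highest 2 of Nog, while the highest 2 values of Id3 (72.5 and 78.9 TPM) are in p16 KO RUN and the third (68.2 TPM) is in replicate 2 of p16 WT CTL, a low library.

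Of the Id genes, Id3 (chr4:136143822-136145392) set the running knockout mice apart. It had 47.46, 68.18, 48.71 and 53.75 TPM in p16 WT CTL, 51.91, 54.51, 52.92 and 52.53 TPM in p16 WT RUN, 63.30, 51.48, 56.75 and 55.30 TPM in p16 KO CTL and 72.49, 65.83, 65.29 and 78.94 TPM in p16 KO RUN. The p16 KO RUN libraries lay above all those of p16 WT RUN and of p16 KO CTL, and of the other 12 libraries only replicate 2 of p16 WT CTL reached into their range.

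In Set E Id3 was 1.34-fold higher, at a log2 fold change of 0.42 ± 0.06 (SE), with a limma p of 6.8e-05, an adjusted p of 0.394 and an exact permutation p of 0.0286. This was rank 2 by p among 17317 genes in that comparison, and it was 0.37 to 0.45 and called in each of the 8 fits without 1 library. Set E holds none of the libraries low in nuclear RNA, and its groups did not overlap. Id3 lies on the chromosome of Cdkn2a, at a distance of 46.8 Mb, and the part in this result of sequence that came with the null allele from the FVB strain was not tested. Of the marker lists, Set E called 2 of 6 newborn neuron markers higher, with sums of 174 to 251 TPM in p16 WT RUN and 226 to 362 TPM in p16 KO RUN, and 1 marker higher in each of the lists of endothelium, microglia, choroid plexus and oligodendrocyte precursors. It called 2 of 8 markers of CA pyramidal neurons and 1 of 10 of astrocytes lower. Their part in the result was not tested.

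In Set A Id3 rose by a log2 fold change of 0.25 ± 0.07 (limma p = 0.00710, adjusted p = 0.184, exact permutation p = 0.0286). The value was 0.20 to 0.29 and called in 8 of 8 fits without 1 library, and 0.23, still called, without replicates 6 and 7. Running in p16 WT gave -0.04 (95% interval -0.32 to 0.24) and p16 KO in sedentary mice 0.13 (-0.16 to 0.42), neither of which passed the test. Without the libraries low in nuclear RNA, the latter was 0.28 and was called. Replicate 2, the highest of the wild-type values, was among those left out. The difference between the running effects of the genotypes was 0.29 (-0.03 to 0.61) and was not called, while it was 0.13, not called, without those libraries and 0.34, called, with the nuclear RNA covariate.

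Id1 (chr2:152736251-152737410) was also higher in running than in sedentary knockout mice. p16 KO CTL had 18.24, 12.74, 15.72 and 19.88 TPM and p16 KO RUN 27.21, 23.34, 22.73 and 20.69 TPM. In TPM as deposited the groups did not overlap, with a narrow gap between replicates 8 and 16. Id1 was 1.36-fold higher, at a log2 fold change of 0.44 ± 0.13 (SE; limma p = 0.00882, adjusted p = 0.192, exact permutation p = 0.0571), and 0.33 to 0.53 over the 8 fits without 1 library, all called. Without replicates 6 and 7, of which replicate 6 has the lowest value, it was 0.28 and was not called.

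In the wild type, Id1 had 16.08, 20.23, 14.71 and 28.36 TPM in p16 WT CTL and 17.85, 23.02, 22.74 and 21.82 TPM in p16 WT RUN. Replicate 4 was the highest of the 16 values, and the groups overlapped, with a log2 fold change of 0.13 (95% interval -0.30 to 0.57) in Set C. The genotypes did not pass the test in either pair, at -0.16 (-0.64 to 0.31) in Set B and 0.14 (-0.10 to 0.39) in Set E. Endothelial markers, which have 6 genes in the list used, moved with Id1 and Id3 in Set A, where 2 of 6 were called higher and the sum was 63.2 to 126 TPM in p16 KO CTL and 109 to 162 TPM in p16 KO RUN. The low sums were those of replicates 6 and 7 (63.2 and 65.6 TPM), while replicates 5 and 8 (122 and 126 TPM) lay within the range of the runners. Replicates 6 and 7 are also the libraries of p16 KO CTL low in nuclear RNA, and the part of the endothelial markers was not tested. Set A also called higher 2 of 6 newborn neuron markers and 2 of 8 nuclear transcripts. In the lists of dentate granule neurons, meninges and immediate early genes, 1 marker each was called higher. Of the 8 GABAergic interneuron markers, 1 was called higher and 1 lower. The part of these lists was not tested.

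Id4 (chr13:48261427-48264036) went the other way. It had 71.89, 94.15, 79.85 and 75.20 TPM in p16 WT CTL, 77.44, 58.84, 76.23 and 57.52 TPM in p16 WT RUN, 85.29, 99.52, 96.88 and 79.62 TPM in p16 KO CTL and 70.49, 55.05, 79.49 and 75.26 TPM in p16 KO RUN. The 3 values above 90 TPM were those of the libraries low in nuclear RNA, and the 3 values below 60 TPM were those of runners. In p16 KO every runner lay below every sedentary library, although replicates 15 and 8 nearly met.

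In Set A Id4 had a log2 fold change of -0.44 ± 0.13 (SE; limma p = 0.00687, adjusted p = 0.18, exact permutation p = 0.0286). It was called in 8 of 8 fits without 1 library (-0.50 to -0.34) but was -0.27 and not called without replicates 6 and 7. In p16 WT the running effect was -0.27 (95% interval -0.56 to 0.02) and was not called. Astrocyte and radial glia markers moved with Id4 in Set A, where 5 of 10 were called lower and 0 higher, and their sum was 2483 to 3719 TPM in p16 KO CTL and 2538 to 2886 TPM in p16 KO RUN. The high sums were those of replicates 6 and 7 (3719 and 3364 TPM), both low in nuclear RNA. Replicate 5 (2860 TPM) lay within the range of the runners and replicate 8 (2483 TPM) below it. Oligodendrocyte markers, of which 4 of 6 were called lower, summed to 1458 to 2426 TPM and 1132 to 1484 TPM. Called lower too were 2 of 8 markers of CA pyramidal neurons and 2 of 6 of microglia. For GABAergic interneurons 1 of 8 was called lower and 1 higher. The part of these lists in the lower values of Id4 and Nog was not tested. Id4 overlaps the antisense gene A330033J07Rik and Gm49291.

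Id2 (chr12:25093799-25096092), the most abundant of the 10 genes, did not pass the test in any comparison. It had 142 to 157 TPM in p16 WT CTL, 143 to 165 in p16 WT RUN, 147 to 177 in p16 KO CTL and 137 to 180 in p16 KO RUN. With running its log2 fold changes were 0.05 (95% interval -0.11 to 0.22) in p16 WT and -0.14 (-0.35 to 0.08) in p16 KO, and with genotype they were 0.16 (-0.02 to 0.35) in sedentary mice and -0.03 (-0.22 to 0.16) in runners. The 4 Id genes therefore did not share a direction in Set A, with Id1 and Id3 called higher, Id4 called lower and Id2 not called. In Set B Id4 had 0.23 (-0.05 to 0.52) and was not called, and 0.16, called, without the libraries low in nuclear RNA. Markers called higher in Set B, where Bmp6 and Nog were called higher, were 4 of 10 of astrocytes, 3 of 5 of oligodendrocyte precursors, 2 of 6 of microglia, 2 of 8 of CA pyramidal neurons, 2 of 8 of GABAergic interneurons and 1 of 6 of oligodendrocytes, and no marker of these lists was called lower. Their part in the results was not tested.

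The rest of the pathway was followed in 6 lists of 56 genes, of which 54 passed the filter, while Bmp8a and Gdf2 reached at most 0.232 and 0.130 TPM. Running called 6 of the 54 in Set C, all higher, where 4.81% of all genes were called, and 9 in Set A, with 7 higher and 2 lower, where 18.5% of all genes were called. Genotype called 3 in Set B (1 higher, 2 lower), where 6.69% were called. Without the libraries low in nuclear RNA these counts were 5, 6 and 6. Acvr1, Fst and Skil were called higher by running in both genotypes, in comparisons that share no library, where 1.59% of all tested genes were called in both in 1 direction. None of the 10 genes above was called in both. Acvr1, Fst and Skil kept their calls in both genotypes without the libraries low in nuclear RNA.

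Fst encodes follistatin, a secreted inhibitor of activins and of some BMPs. It had 0.775, 1.53, 3.23 and 3.77 TPM in p16 WT CTL and 3.72, 7.46, 4.32 and 10.7 TPM in p16 WT RUN, where the ranges met at 3.7 TPM, and 4.78, 3.69, 3.97 and 1.99 TPM in p16 KO CTL and 6.42, 9.13, 11.4 and 12.2 TPM in p16 KO RUN, where they did not overlap. With running Fst had a log2 fold change of 1.54 ± 0.50 (SE) in Set C (limma p = 0.0123, adjusted p = 0.985, exact permutation p = 0.0571) and 1.37 ± 0.29 in Set A (limma p = 0.000986, adjusted p = 0.127, exact permutation p = 0.0286).

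Skil encodes SnoN, a repressor of Smad activity that is itself switched on by Smads. Its libraries had 36.5, 30.4, 33.3 and 41.8 TPM in p16 WT CTL, 46.9, 69.6, 47.5 and 59.3 TPM in p16 WT RUN, 38.4, 36.2, 27.3 and 28.9 TPM in p16 KO CTL and 45.5, 62.6, 45.7 and 50.7 TPM in p16 KO RUN. All 8 running libraries lay above all 8 sedentary ones. With running Skil had a log2 fold change of 0.63 ± 0.14 (SE) in Set C (limma adjusted p = 0.937) and 0.58 ± 0.13 in Set A (adjusted p = 0.147).

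Acvr1 encodes another type I receptor for BMPs. It had 43.3, 42.2, 49.2 and 45.8 TPM in p16 WT CTL, 49.8, 62.6, 53.4 and 50.9 TPM in p16 WT RUN, 49.3, 40.4, 41.7 and 41.6 TPM in p16 KO CTL and 57.0, 59.7, 55.6 and 64.6 TPM in p16 KO RUN. Again each runner lay above each sedentary library, with a log2 fold change of 0.25 ± 0.08 (SE) in Set C (limma p = 0.0163, adjusted p = 0.985) and 0.39 ± 0.07 in Set A (limma p = 0.000257, adjusted p = 0.101), both with an exact permutation p of 0.0286. Smad7, an inhibitory Smad, was called in Set C, at 12.7, 11.1, 11.0 and 10.3 TPM in p16 WT CTL and 14.7, 16.1, 14.4 and 13.2 TPM in p16 WT RUN (log2 fold change 0.36 ± 0.10, limma adjusted p = 0.937). It was not called in Set A, where its p16 KO RUN libraries of 10.5 to 17.0 TPM overlapped those of p16 KO CTL, of 8.51 to 14.1 TPM, and the interaction did not call it either. Without replicates 6 and 7 its value in Set A was -0.06.

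**Figure D4:**
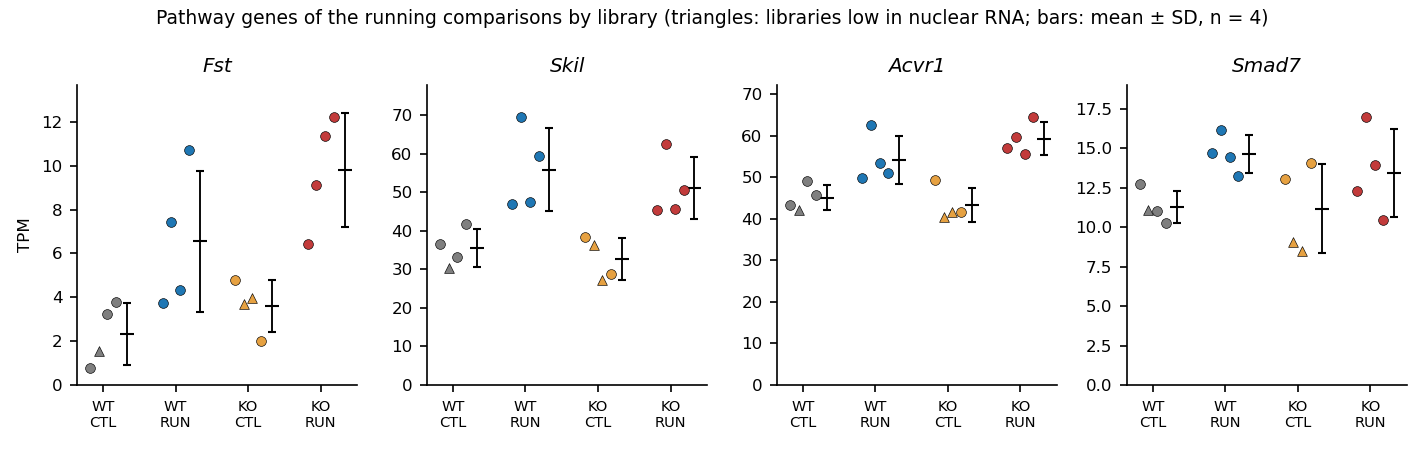
TPM of Fst, Skil, Acvr1 and Smad7 in each library, by group, with the mean ± SD of 4 libraries beside the points and with triangles for the libraries low in nuclear RNA. For Skil and Acvr1 the points of both running groups lie above those of both sedentary groups, and for Smad7 the groups of p16 KO overlap.

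The further genes called in Set C were Zeb2, a Smad-interacting repressor (121 against 85.6 TPM, log2 fold change 0.48), and Ski, a Smad corepressor (139 against 124 TPM, 0.16), which kept their calls in 2 and 1 of the 8 fits without 1 library and lost them without replicate 2. In Set A they were Gdf11 (26.8 against 29.9 TPM, log2 fold change -0.22), Gdf7 (0.594 against 0.206 TPM, 1.14) and Bmp1 (69.3 against 38.1 TPM, 0.94), with 3 more called, Gdf10 lower and Acvr2a and Eng higher. Bmp1 is a protease that cleaves procollagens and chordin rather than a ligand, and its value without replicates 6 and 7 was 0.35 and was not called. In Set B Dand5, an extracellular antagonist of the family, was lower in p16 KO (14.7 against 18.9 TPM, -0.29), and Gdf11 was higher (29.9 against 25.9 TPM, 0.27). Gdf5, the other gene called lower, had 0.193 to 0.467 TPM in p16 WT CTL and was listed at 0 in 3 of the 4 p16 KO CTL libraries and at 0.46 TPM in replicate 7, and its call was kept in 2 of the 8 fits without 1 library. The E protein genes Tcf3, Tcf4 and Tcf12, whose products the Id proteins bind, were called in none of the comparisons. The limma adjusted p of the genes in this paragraph was 0.172 or more.

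For each of the 10 genes, the 2 genes with the most similar profile of log2 values over the 16 libraries were listed as a description, with Pearson's r. Id4 went with Pea15a (0.94) and Phgdh (0.94), Id3 with Fbln5 (0.80) and Fzd7 (0.80), Id1 with Adamts14 (0.84) and Vwf (0.82), and Id2 with H1f0 (0.87) and Mif4gd (0.85). Bmpr2 went with Gucy1a2 (0.88) and Rbpj (0.86), Bmpr1a with Lyn (0.92) and Abca9 (0.92), and Bmpr1b with Hmgb1 (0.78) and Trim44 (0.77). Nog went with Ung (0.85) and Ppp1r16a (0.85), Bmp6 with Lrrc27 (0.92) and Aurka (0.85), and Bmp4 with Tfpi (0.80) and Fyn (0.79). The libraries share their group and their nuclear RNA content, and without the 3 libraries low in nuclear RNA the r of Bmpr1a with Lyn was 0.72 and that of Id4 with Pea15a 0.89 over 13 libraries.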

How the data were processed

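The 16 libraries made from dentate gyrus RNA were grouped by the sample labels. According to the methods and the labels, the authors demultiplexed the paired reads with bcl2fastq 2.20, masked adapters with cutadapt 1.11, trimmed low-quality bases (ERNE), mapped to mm10 (STAR) and ran StringTie. The TPM values, per the file headers, are length-corrected StringTie abundances. The FPKM values deposited beside them served as an alternative, and the coverage values, as deposited, gave relative depth. No counts were given, so the counting error of single genes is unknown.

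Rows sharing a gene name were added up (112 to 130 names in a library). Scaling factors were median ratios to the average library, taken from 13226 genes that reached 1 TPM in all 16. Genes averaging 0.1 TPM or more (17317) were fitted on log2(scaled TPM + 0.1) with limma 3.58.1 (R 4.3.3, empirical Bayes with a variance trend), using 8 libraries per set and 16 for the interaction. Fold changes are on this scale, which understates low genes. Adjustment followed Benjamini-Hochberg, and the exact permutation test was two-sided over 70 assignments. The procedure was tested on simulated data. Levels are TPM without scaling.

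The 10 genes, 6 pathway lists and 13 marker lists were chosen with earlier results of these data known. Named were the 10 genes, Cdkn2a, the called pathway genes (up to 6 of smallest p in a comparison) and the 2 most similar genes of each. Gdf10, Acvr2a and Eng, beyond this rule, were named after their values were seen. Alternatives were other filters, pseudocounts and scalings, FPKM, a single fit for all libraries, no trend of the variance, the top row in place of the sum for repeated names, a nuclear RNA covariate and leaving out libraries. The covariate was the mean of the log2 values of the nuclear transcripts in each library, not their summed TPM. Leaving out the 3 libraries low in nuclear RNA was added after seeing the data. Promoters are from RefSeq. The pathway calls of Set E are not reported here.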

Additional observations from a re-analysis of the deposited data

Results flagged for a closer look

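The running effect differed between the genotypes in the interaction test of limma at an unadjusted p under 0.05 for 1 of the 10 genes and for 2 of the 54 tested genes of the pathway lists, where 5.48% of all genes were called. The log2 difference, p16 KO minus p16 WT, was -0.87 ± 0.29 (SE) for Nog, -0.23 ± 0.08 for Gdf11 and 0.69 ± 0.32 for Bmp3, each with an adjusted p of 0.797. Nog and Gdf11, a ligand of the activin branch, were called in 16 of 16 fits without 1 library, and Bmp3, a ligand that opposes other BMPs, in 5 of 16. With the nuclear RNA covariate Nog (-0.73) and Gdf11 (-0.18) stayed called and Bmp3 (0.70) did not. Without the libraries low in nuclear RNA none of the 3 passed, with -0.51 for Nog, -0.18 for Gdf11 and 0.70 for Bmp3. Among the other pathway genes named above, Gdf5 (2.09) and Bmp1 (0.62), not called in the main fit, were called there. Gdf5 (1.97) was called with the covariate as well. Its value was listed as 0 in replicates 5 and 8 of p16 KO CTL. Bmp3 had 1.74 ± 0.223 TPM (SD, n = 4) in p16 WT CTL, 1.51 ± 0.488 in p16 WT RUN, 1.44 ± 0.261 in p16 KO CTL and 2.08 ± 0.346 in p16 KO RUN. Of the 40 sets of 4 libraries (10 genes in 4 groups), 0 held a library far from the other 3 by Dixon's test, where chance gives about 1 in 20.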

How the results depend on the processing

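No paired analysis was possible because each replicate number occurs in 1 group only. Of the 10 genes, Set A called 4, and 2 (Id3 and Nog) both with the nuclear RNA covariate and without the libraries low in nuclear RNA. Set B called 2, and 1 (Bmpr1b) with the covariate, while without those libraries it called Id3 and Id4 in place of Bmp6 and Nog. The interaction called 1, and 2 (Nog and Id3) with TPM as deposited and 3 (Nog, Id3 and Bmpr2) with the covariate. Without the low libraries it called Bmpr2 in place of Nog. Leaving out each library in turn gave 4 to 5 calls in Set A, 0 to 5 in Set B, 1 to 2 in Set C, 2 to 3 in Set E and 1 to 2 in the interaction. In Set B the count was 0 without replicate 7 of p16 KO CTL, 5 without replicate 2 of p16 WT CTL and 1 without replicate 1, 4 or 6. The pathway lists had 9 calls in Set A (5 with the covariate, 7 to 13 without 1 library), 3 in Set B (6 without the low libraries, 6 in a single fit of all libraries, 2 to 10 without 1 library, the 10 without replicate 2 and 7 without replicate 5), 6 in Set C (4 to 8 without 1 library) and 2 in the interaction (1 to 6 without 1 library, 4 with TPM as deposited, 1 with quantile normalization or a mean of at least 1 TPM). For the 10 genes, all other filters, pseudocounts and scalings gave counts within 1.5 times the main ones, and the cause of these changes was not tested.

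Among the 10 genes, the log2 values that changed sign belong to differences that were not called. With the covariate they were 0.038 for Bmpr1a and 0.11 for Bmpr1b in Set A, -0.0067 for Bmpr1a in Set B, 0.019 for Bmpr1a and 0.0375 for Id3 in Set C and 0.016 for Bmpr1a in the interaction. Without the low libraries they were 0.044 for Bmpr1a and 0.12 for Bmpr1b in Set A, -0.00044 for Bmpr1a and 0.052 for Id1 in Set B, 0.032 for Bmpr1a and 0.096 for Id3 in Set C and 0.012 for Bmpr1a in the interaction. With TPM as deposited Bmpr2 had -0.020 in Set B and Bmpr1a 0.0049 in Set C, and with quantile normalization Bmpr1b had -0.012 in the interaction. Without 1 library the ranges that crossed 0 were those of Bmpr1b in Set A (-0.35 to 0.10), of Bmp4 (-0.15 to 0.54) and Id1 (-0.30 to 0.0098) in Set B, and of Bmp4 (-0.23 to 0.62), Bmp6 (-0.056 to 0.18), Bmpr1a (-0.028 to 0.032), Id1 (-0.0052 to 0.31) and Id3 (-0.10 to 0.10) in Set C. They also included Bmpr1a (-0.023 to 0.049), Id2 (-0.10 to 0.027) and Id4 (-0.0058 to 0.16) in Set E, and Bmp4 (-0.15 to 0.70), Bmp6 (-0.044 to 0.19) and Bmpr1b (-0.19 to 0.26) in the interaction. Read counts are not known. The deposited mean coverage per base was 0.852 to 8.41 for Bmp4 and 291 to 935 for Id2, so precision is lowest for Bmp4 and other genes of low level.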
